A study of Mus musculus with 6 samples.

Results

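The genes described here are the matrix metalloproteases (MMPs), the secreted ADAMTS proteases, the ADAMTS-like (ADAMTSL) proteins, which share the ADAMTS ancillary domains but have no protease domain, and the tissue inhibitors of metalloproteases (TIMPs), compared between osteoblasts of the mandible and of the tibia. They were taken by gene symbol alone, with Mmp9 and Mmp20 left out, which gave 49 of the 19679 genes in the table. The 49 comprised 15 secreted or otherwise not membrane-type MMPs, 6 membrane-type MMPs, 19 ADAMTS, 5 ADAMTSL and 4 TIMPs. Of these, 34 had a mean RPKM (read count divided by transcript length and by the mapped reads of the library) of at least 0.5 over the 6 libraries and were tested, and 15 lay below that filter.

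Bone matrix is laid down, matured and remodelled under the control of these families. MMPs are zinc proteases that cut collagens and other matrix proteins, ADAMTS proteases trim procollagens, cut the large proteoglycans or act on fibrillin microfibrils, and ADAMTSL proteins bind microfibrils without cutting. TIMPs bind to the active site of metalloproteases and block it, so the level of a protease transcript alone does not give protease activity.

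Both groups were cells sorted for green fluorescent protein from transgenic Col1a1*2,3-GFP mice at postnatal day 9, an age shared by both groups along with the genotype. In this line a fragment of the Col1a1 promoter, active in osteoblasts, drives the fluorescent protein, so any cell in which it is on can enter the gate. Bones from about 50 mice were pooled in each of 3 dissections, digested with collagenase and sorted, giving 3 mandible and 3 tibia libraries from 2 to 8 ng of RNA each, amplified with the SMART-Seq v4 kit before library preparation. Where 3 values are given for a site, they are the libraries of dissections 1, 2 and 3 in that order. Each library is thus a pool, and the p-values below speak of how much 3 pools differ, not of how much mice differ. The sorted populations are bulk samples, in which fewer cells of a type and less RNA per cell cannot be told apart.

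The libraries held between 48.9 and 57.9 M reads, as recovered from the spacing of low RPKM values. Summed RPKM of 11 osteoblast markers lay between 65639 and 72987 in the mandible and between 71356 and 77223 in the tibia, and none of the 11 was at 0 in either group. The sum hid opposite shifts of single genes. Col1a1 was at 17291, 17057 and 5566 from the mandible and 26205, 24442 and 7990 from the tibia. Spp1 was at 9453, 6929 and 24075 from the mandible and 7320, 6170 and 13423 from the tibia. Both libraries of dissection 3 stood apart from the other 4, with deviations from the site means that correlated at 0.80 with each other across genes. Their correlations with the other site's libraries of other dissections lay between -0.71 and -0.64. Deviations from a site mean cancel out within the site, so these negative values follow largely from the 0.80 and add little to it. The 2 libraries of dissection 3 also had the highest neutrophil marker sums, 8311 in the mandible and 8767 in the tibia. The other mandible libraries were at 725 and 1061 and the other tibia libraries at 1183 and 1782. In the mandible libraries the sums of the ameloblast and odontoblast lists were far higher than in the tibia. For 6 ameloblast genes they lay between 509 and 2181 against 6.73 to 9.78 (4 of 6 higher in every mandible library, Odam at 0 in the tibia). For the 4 genes of the odontoblast list (Dspp, Barx1, Lhx8 and Pax9) they lay between 17.9 and 90.0 against 0.474 to 0.977. All 4 were higher in every mandible library, and none was at 0 throughout the tibia. Dspp was the largest part of the mandible sums, at 52.5, 70.2 and 9.53 RPKM. Barx1, Lhx8 and Pax9 are transcription factors not confined to odontoblasts. Endothelial marker sums were lower in the mandible, between 31.8 and 46.3 against 68.1 to 123, with 4 of 6 genes lower in every mandible library and none at 0 throughout a group.

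With site as the only term, 1 of the 34 tested members passed an adjusted p of 0.05 in limma with Benjamini-Hochberg adjustment over all genes, the protease gene Adamts19, higher in the mandible, where 0.972% of all 12752 genes tested passed in either direction and 0.87% were higher. At an unadjusted p under 0.05 there were 5 members. The labels give 3 dissections shared by both sites, and with the dissection as a block 7 of 34 members passed, 20.6% against 6.49% of all genes. Of these, 6 were higher in the mandible (Adamts19, Adamtsl1, Adamtsl2, Mmp11, Mmp13 and Timp3), against 4.44% of all genes, and 1 was lower (Mmp8), against 2.05%. With the block and quantile normalization, Mmp11 no longer passed (adjusted p = 0.0740) and the other 6 did. With the block and no filter on low values, an alternative added after the data were seen, none of the 49 passed, and these 7 had adjusted p-values from 0.0639 (Adamts19) to 0.147 (Mmp11). Without dissection 3, with site only, 5 members passed, all higher in the mandible (Adamts3, Adamts4, Adamts19, Adamtsl2 and Timp3), 14.7% against 5.6% of all genes. The median log2 fold change, mandible minus tibia, was 0.16 over the tested members and 0.12 over all genes, and 0.04 and -0.01 after quantile normalization.

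A looser description used the libraries directly. In 5 of the 34 members (Timp3, Adamtsl2, Adamts19, Adamts18 and Adamts6) every mandible library lay above every tibia library, 14.7% against 12.6% of all genes tested, and in none did every mandible library lie below, against 3.05% of all genes. The mandible library was the higher of the pair in each of the 3 dissections in 17 members, 50% against 36.8%, and the lower in 4 members (Adamts9, Adamts14, Adamts15 and Mmp8), 11.8% against 13.4%. Adamts18 and Adamts19 passed the filter through their mandible libraries, with tibia means under 0.5 RPKM, so their higher mandible level is in part a condition of their being counted. For Adamts19 this holds for the counts and shares of calls above as well.

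**Figure D1:**
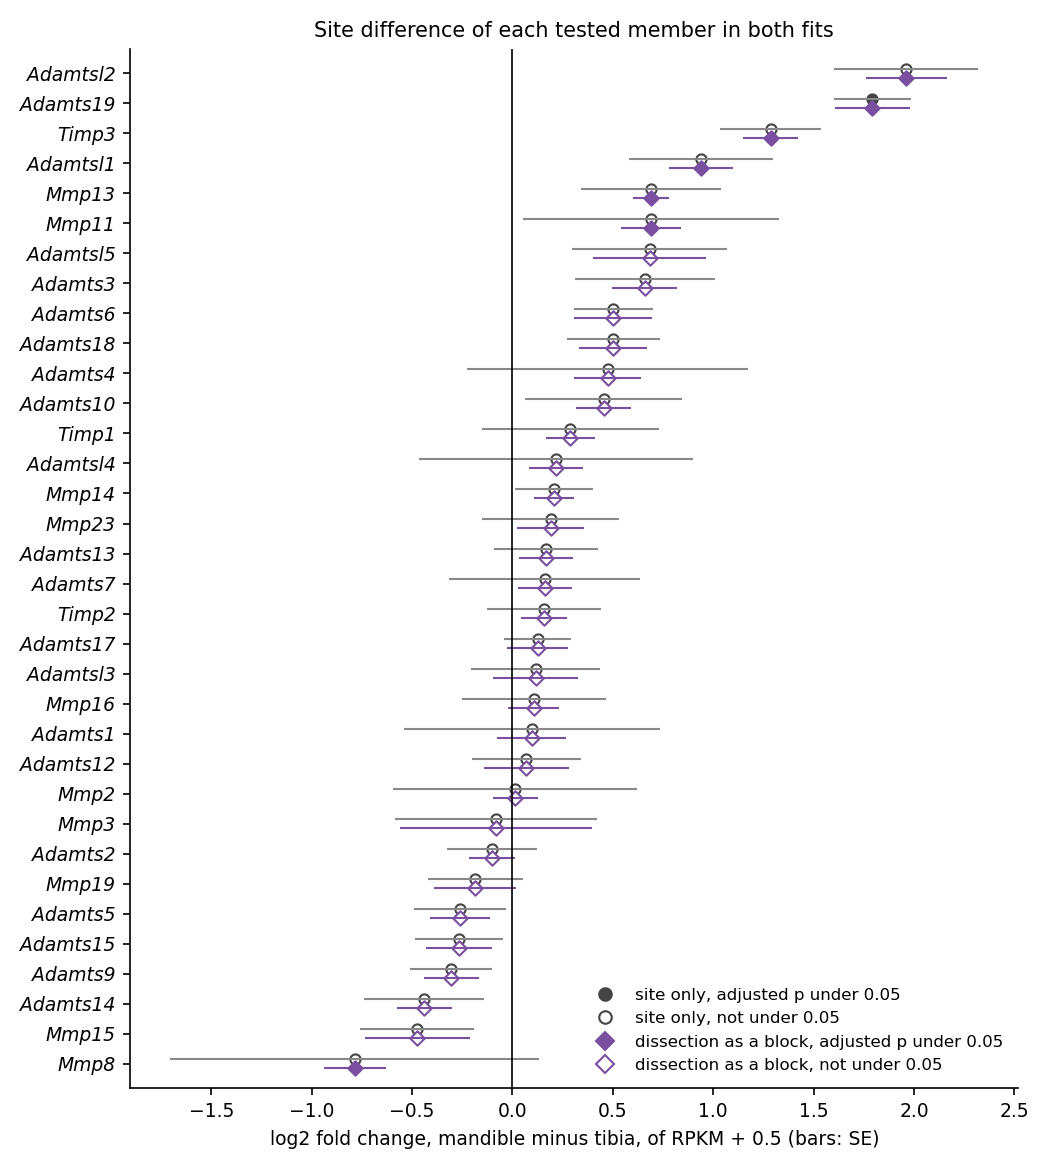
Log2 fold change of RPKM + 0.5, mandible minus tibia, of the 34 tested members, with bars of 1 SE, in the fit with site only (circles) and with the dissection as a block (diamonds); filled symbols have an adjusted p under 0.05. Adamts19 is filled in both fits, and Adamtsl2, Timp3, Adamtsl1, Mmp13, Mmp11 and Mmp8 are filled with the block.

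Mmp13, collagenase-3, which cuts fibrillar collagens and is made by osteoblasts and by hypertrophic chondrocytes, had the highest mean level of the 49 genes. It lies at chr9:7272514-7283331 (GRCm38) on the plus strand. Its RPKM was 904, 644 and 1111 from the mandible and 566, 397 and 682 from the tibia. The mandible library was higher in each dissection, but the groups overlapped, since mandible library 2 lay below tibia library 3. The log2 ratios within the 3 dissections were 0.68, 0.70 and 0.70. The fold change of 0.69 had an SE of 0.35 and an adjusted p of 0.671 with site only, and an SE of 0.09 and an adjusted p of 0.0105 with the dissection as a block. Without dissection 3 the fold change was 0.69 as well (adjusted p = 0.140). Among cartilage markers, Col10a1 of hypertrophic chondrocytes was lower in every mandible library (1.06 ± 0.513 RPKM against 4.01 ± 2.94, SD, n = 3), while 4 of the 10 were higher in every mandible library, and their part was not tested.

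Mmp13 sits at the end of a cluster of MMP genes on chromosome 9, where 9 of the 49 members lie within 427 kb, and the levels beside it were far lower. On the RPKM scale, which is per length, mean Mmp13 was 886 in the mandible and 548 in the tibia. Its neighbour Mmp12, the macrophage elastase, was at 0.279 and 0.234, and Mmp10, stromelysin-2, at 0.129 and 0.228. Mmp1a, Mmp1b, Mmp7 and Mmp27 were at or under 0.0622 in both groups, and Mmp1b and Mmp7 were listed at 0 in every tibia library. Mmp3, stromelysin-1, was uneven among libraries, from 0.0112 RPKM (about 1 read) in mandible library 1 to 1.29 in mandible library 2, with tibia libraries at 1.13, 0.385 and 0.247. Only Mmp13, Mmp8 and Mmp3 of the 9 passed the filter.

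**Figure D2:**
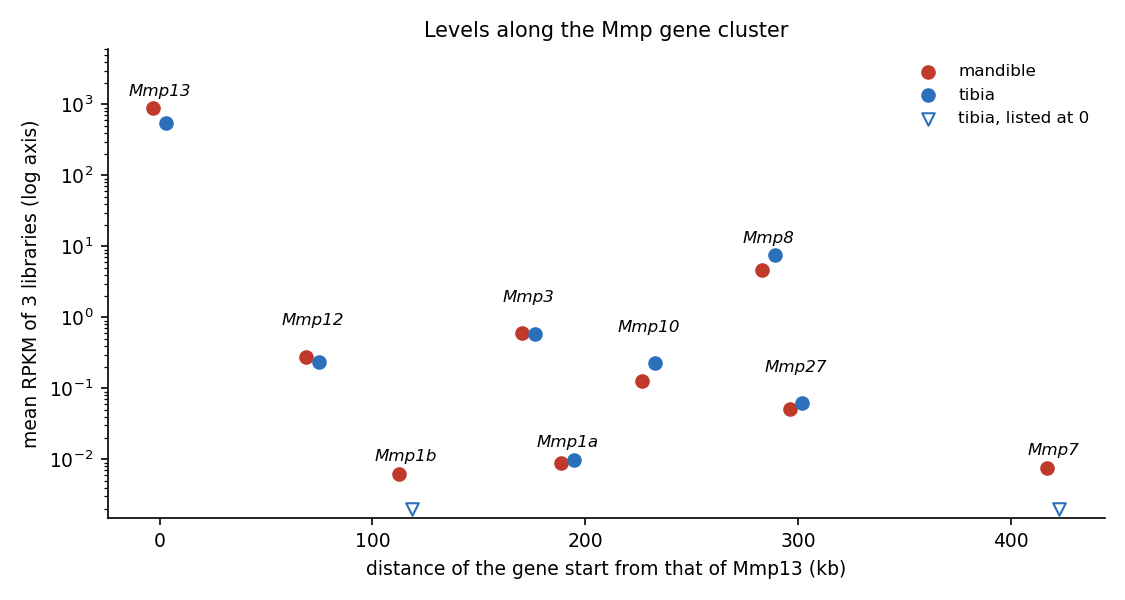
Mean RPKM over the 3 libraries of each site (log axis) of the 9 MMP genes of the chromosome 9 cluster, against the distance of the gene start from that of Mmp13 in kb. Mmp13 stands at 886 and 548, Mmp8 at 4.66 and 7.47, and every other gene of the cluster below 1, with open triangles for genes listed at 0 in the tibia.

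The promoters of this cluster are shown because most of its genes, Mmp8 not among them, share a short element although their levels differ. Promoter sequences came from RefSeq (build GRCm38.p6), in which 35 of the 49 members were found. The 250 bases upstream of each start were searched on both strands for AP-1 (TGANTCA), a Runx core (ACCACA), a GC box (GGGCGG) and a TATA box (TATAAA), none of which overlapped another in the sequences printed. Below are the 150 bases upstream of the RefSeq start, all on the plus strand, for Mmp13 (chr9:7272364-7272513), Mmp3 (chr9:7445672-7445821), Mmp10 (chr9:7502192-7502341) and Mmp8 (chr9:7558279-7558428), with matches in capitals.
Mmp13: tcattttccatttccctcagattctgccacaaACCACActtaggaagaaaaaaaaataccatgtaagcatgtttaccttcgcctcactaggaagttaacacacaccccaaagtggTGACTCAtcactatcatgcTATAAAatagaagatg
Mmp3: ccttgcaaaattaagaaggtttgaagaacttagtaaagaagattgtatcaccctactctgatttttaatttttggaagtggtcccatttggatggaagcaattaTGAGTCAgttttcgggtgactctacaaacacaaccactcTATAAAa
Mmp10: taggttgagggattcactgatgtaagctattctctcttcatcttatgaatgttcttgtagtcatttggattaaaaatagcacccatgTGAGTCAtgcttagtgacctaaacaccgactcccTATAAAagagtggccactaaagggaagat
Mmp8: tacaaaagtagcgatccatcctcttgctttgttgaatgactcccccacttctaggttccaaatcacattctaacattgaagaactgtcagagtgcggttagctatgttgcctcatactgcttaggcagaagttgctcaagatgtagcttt

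The AP-1 letters stood in 7 of the 9 cluster promoters (Mmp1a, Mmp1b, Mmp3, Mmp7, Mmp10, Mmp12 and Mmp13) and in no other member promoter, while 6.75% of all 32851 promoters in the table held them. In Mmp13 the match began 35 bases before the start, in Mmp3 46 and in Mmp10 63. The TATA letters were in 6 of the 9 (12.4% of all promoters) and the Runx letters in 4 of the 9 (14.0%), among them Mmp13, where they began 118 bases before the start. No cluster promoter held the GC box, which was in 20 of the 35 member promoters and 32.7% of all. These are matches of letters, and the genes that carry the AP-1 letters ranged in mean mandible level from 0.00624 RPKM for Mmp1b to 886 for Mmp13.

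Mmp8, the neutrophil collagenase, was the member with a lower mandible level in the fit with the block. Its RPKM was 1.19, 1.52 and 11.3 from the mandible and 2.40, 3.75 and 16.3 from the tibia. Dissection 3 was the highest at each site and the groups overlapped. The fold change was -0.79 on the log2 scale (SE 0.92, adjusted p = 0.937) with site only and had an SE of 0.15 and an adjusted p of 0.0371 with the block, and without dissection 3 it was -0.92 (adjusted p = 0.0732). All 6 libraries ranked in the same order by Mmp8 as by the summed RPKM of the 8 neutrophil markers, none of those markers was at 0 throughout either group, and their part in the Mmp8 difference was not tested.

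Mmp2, gelatinase A, which cuts denatured collagen and basement membrane, was second in level and did not part the sites. Its RPKM was 322, 339 and 99.3 from the mandible and 282, 326 and 115 from the tibia. Both libraries of dissection 3 were far below the other 4, and the sites overlapped. The fold change was 0.01 (SE 0.61, adjusted p = 0.997), with an SE of 0.11 and an adjusted p of 0.945 with the block, and it turned to -0.16 after quantile normalization. Mmp13 and Mmp2 together made up most of the summed MMP level, and Mmp13 alone held 66.7%, 57.7% and 83.5% of it from the mandible and 58.6%, 47.2% and 75.2% from the tibia.

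Mmp11, stromelysin-3, which is activated inside the cell by furin and cuts few matrix proteins, was at 13.5, 14.6 and 4.80 RPKM from the mandible and at 10.02, 9.05 and 2.15 from the tibia. It was higher in the mandible in each dissection, and the low libraries of dissection 3 made the groups overlap. The fold change was 0.69 (SE 0.64, adjusted p = 0.900) with site only and the SE was 0.15 with the block (adjusted p = 0.0462). Mmp23, a membrane-anchored MMP outside the membrane-type group, was at 25.1, 32.9 and 22.0 against 28.5, 30.5 and 13.9 (0.19, adjusted p = 0.963). Mmp19 was at 1.36 ± 0.131 from the mandible and 1.67 ± 0.642 from the tibia (-0.19), and it overlaps Tmem198b on the other strand, which was at 9.04 RPKM on average. Mmp21 and Mmp28 were below the filter, at or under 0.157 in both groups. Every mandible library of Mmp21 lay below every tibia library, at 0.0435, 0.0833 and 0.0624 against 0.0876, 0.145 and 0.145. These values stood for only 3.96 to 14.0 reads. When all genes were tested in limma without a filter, its adjusted p was 0.438.

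Membrane-type MMPs are held at the cell surface, and Mmp14 (MT1-MMP) both cuts collagen there and activates pro-Mmp2. Mmp14 varied little among libraries, at 68.2, 61.2 and 68.3 RPKM from the mandible and 54.6, 52.2 and 64.8 from the tibia. Mandible library 2 lay below tibia library 3, so the groups overlapped by 1 library each. The fold change was 0.21 (SE 0.19, adjusted p = 0.901; 0.251 with the block). Mmp16 (MT3-MMP) was at 18.7, 16.8 and 10.4 against 16.4, 18.7 and 8.52 (0.11, adjusted p = 0.978) and turned to -0.03 after quantile normalization. Mmp15 (MT2-MMP) was at 0.486, 0.659 and 0.366 against 1.41, 0.459 and 0.951, a difference of -0.47 (SE 0.28, adjusted p = 0.753) with 1 tibia library inside the mandible range. Mmp17, Mmp24 and Mmp25 lay below the filter, with Mmp25 the highest of them at 0.256 RPKM against 0.523.

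Among the inhibitors, Timp3 set the sites apart most plainly. TIMP3 is the family member that stays bound to the matrix, and it inhibits ADAM17 and the aggrecanases ADAMTS4 and ADAMTS5 as well as MMPs. Its RPKM was 160, 167 and 104 from the mandible and 56.4, 61.0 and 54.6 from the tibia. Every mandible library lay above every tibia library, and the tibia libraries differed little among themselves, while mandible library 3 was the lowest of its group. The mean was 143 ± 34.7 from the mandible and 57.3 ± 3.33 from the tibia (SD, n = 3), a ratio of 2.50. The log2 fold change of 1.29 (SE 0.25) did not pass with site only (adjusted p = 0.104), passed with the block (SE 0.14, adjusted p = 0.00537) and was 1.47 without dissection 3 (adjusted p = 0.00119). It was 1.13 after quantile normalization. The gene lies on the plus strand at chr10:86300372-86349506 (GRCm38) inside the antisense gene Syn3, which was at 0.0908 RPKM on average.

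Timp1, an inhibitor of most secreted MMPs and highest of the family, was at 192, 184 and 448 RPKM from the mandible and 160, 178 and 305 from the tibia. Dissection 3 was the highest at both sites, and the groups overlapped (0.29, SE 0.44, adjusted p = 0.956; 0.195 with the block). Timp2, which inhibits Mmp2 and also takes part in its activation by Mmp14, was at 38.9, 35.4 and 53.9 against 29.6, 34.8 and 51.8 (0.16, SE 0.28, adjusted p = 0.965; 0.435 with the block), and after quantile normalization its difference was 0.00. Timp4 was below the filter, at 0.171, 0.255 and 0.123 against 0.115, 0.149 and 0.0409, and the groups overlapped. As a share of the inhibitors, Timp3 held 40.9%, 43.2% and 17.1% of the summed TIMP level from the mandible and 22.9%, 22.3% and 13.3% from the tibia, so that the mandible was higher in each dissection although mandible library 3 lay below 2 of the tibia libraries. The ratio of summed MMP to summed TIMP RPKM was 3.46, 2.89 and 2.20 in the mandible and 3.92, 3.07 and 2.21 in the tibia, lower in the mandible in each dissection by less than the range within a site. This ratio is of transcript levels, not of proteins or activity.

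Adamtsl2 had the largest fold change of the 34 tested members on the log2(RPKM + 0.5) scale. In humans, mutations of this gene cause geleophysic dysplasia, a short-stature syndrome, and its protein binds fibrillin and the latent TGF-beta binding protein LTBP1. Its RPKM was 11.7, 13.1 and 5.10 from the mandible and 2.27, 2.19 and 1.62 from the tibia. The groups did not overlap, and dissection 3 was the lowest at each site. Means of 9.98 ± 4.29 and 2.03 ± 0.356 gave a ratio of 4.93. On the log2 scale the difference was 1.96, with an SE of 0.36 and an adjusted p of 0.0880 with site only and an SE of 0.20 and an adjusted p of 0.00455 with the block. Without dissection 3 the fold change was 2.24 (adjusted p = 0.000828), and without mandible library 3 alone it was 2.36 (adjusted p = 0.00880). Without dissection 1 or without dissection 2, Adamtsl2 did not pass. Over the 22 alternatives its adjusted p in limma reached 0.875, while the fold change stayed between 1.72 and 2.36 whichever library or dissection was left out. Ltbp1 was at 10.8 ± 3.10 from the mandible and 13.5 ± 4.39 from the tibia (-0.29, adjusted p = 0.931), Fbn1, fibrillin-1, at 8.21 ± 2.68 and 7.08 ± 0.322 (0.15), and Fbn2 at 8.48 ± 3.07 and 4.17 ± 1.08 (0.90, adjusted p = 0.470; 0.0637 with the block).

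The promoters of Timp3 (chr10:86300262-86300411) and Adamtsl2 (chr2:27079229-27079378), which passed with the block, are printed for comparison with the cluster above, as the 150 bases upstream of the start on the plus strand (RefSeq, GRCm38.p6), with the GC box and the TATA box in capitals. The RefSeq start of Timp3 lies inside the gene as annotated above, so the last bases printed for it, the GC box included, are within that span.
Timp3: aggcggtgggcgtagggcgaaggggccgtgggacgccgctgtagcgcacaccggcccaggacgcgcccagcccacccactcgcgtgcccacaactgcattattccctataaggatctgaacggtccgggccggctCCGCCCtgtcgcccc
Adamtsl2: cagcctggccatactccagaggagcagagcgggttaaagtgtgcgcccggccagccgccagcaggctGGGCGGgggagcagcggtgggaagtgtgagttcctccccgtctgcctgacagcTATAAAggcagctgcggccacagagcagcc
Timp3 held the GC box on the opposite strand, 15 bases before the start, and no TATA letters. Adamtsl2 held a GC box 83 bases and a TATA box 30 bases before the start. Neither held the AP-1 or the Runx letters in this window.

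**Figure D3:**
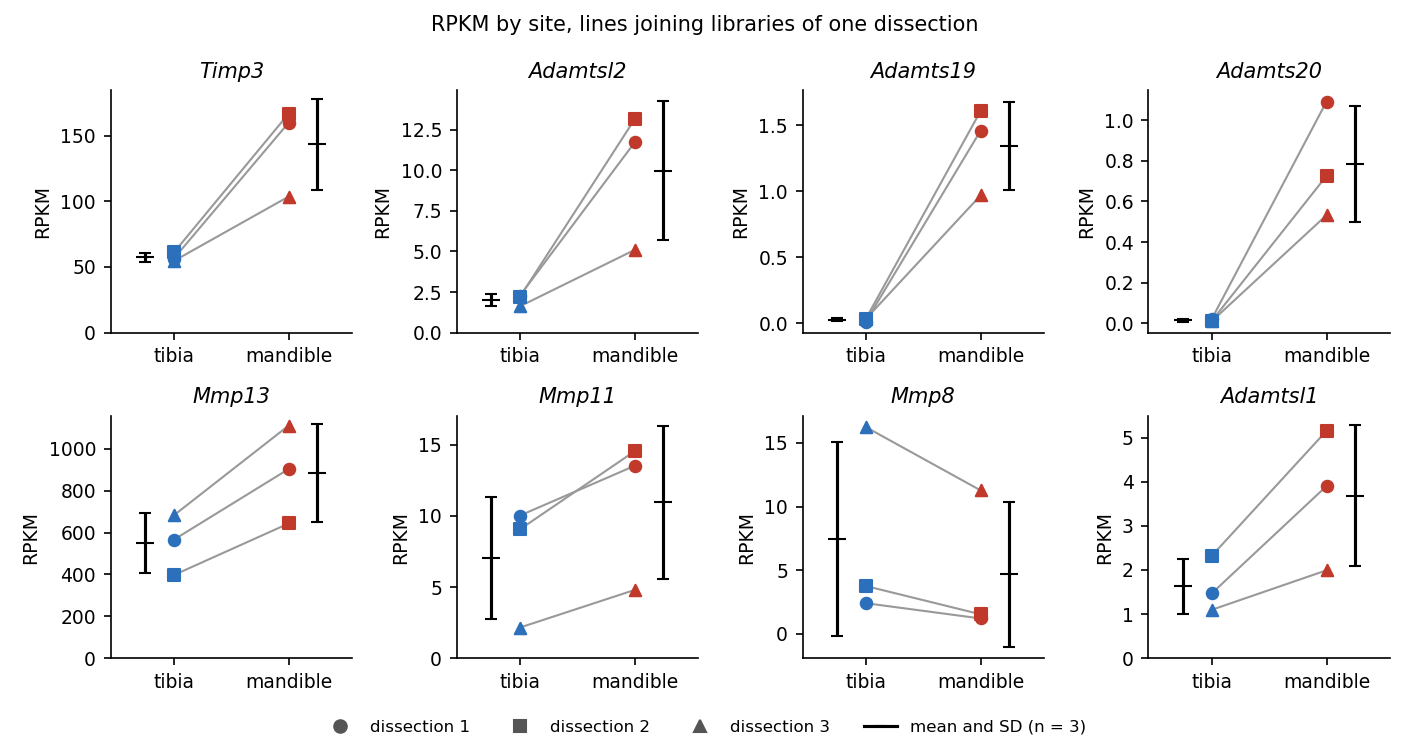
RPKM of 8 members in the tibia (blue) and the mandible (red), with grey lines joining the libraries of 1 dissection and black bars for the mean and SD of 3 libraries. Timp3, Adamtsl2, Adamts19 and Adamts20 show no overlap between sites, the 3 lines of Mmp13 go up to the mandible nearly in parallel, and those of Mmp8 go down.

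The other ADAMTSL genes were lower in level. Adamtsl1, whose protein punctin is deposited in the matrix, was at 3.90, 5.15 and 1.99 RPKM from the mandible and 1.47, 2.32 and 1.10 from the tibia. It was higher in the mandible in each dissection, while mandible library 3 lay below tibia library 2. The fold change was 0.94 (SE 0.36, adjusted p = 0.505; SE 0.16 and 0.0245 with the block). Adamtsl4, a fibrillin-binding protein mutated in human lens dislocation, was at 3.75, 4.59 and 0.869 against 3.22, 4.03 and 0.622 (0.22, adjusted p = 0.976), and each site's drop in dissection 3 was larger than the site difference within any dissection. Adamtsl5 (0.68, adjusted p = 0.732) and Adamtsl3 (0.12, adjusted p = 0.974) overlapped between sites, with means from 0.597 to 1.60. The summed ADAMTSL level was 22.6, 26.6 and 9.44 in the mandible against 9.34, 10.8 and 4.64 in the tibia, higher in each dissection and overlapping between mandible library 3 and tibia library 2.

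Adamts19, a protease whose substrates are not well known, was the member that passed in both fits. Its RPKM was 1.46, 1.61 and 0.969 from the mandible and 0.0131, 0.0330 and 0.0331 from the tibia. At its length these values stood for 368, 479 and 256 reads in the mandible and 3.29, 8.83 and 8.75 reads in the tibia, so 1 tibia library lies close to 3 reads. The means were 1.35 ± 0.334 and 0.0264 ± 0.0115, and the log2 fold change, which the added 0.5 shrinks at such levels, was 1.79 (SE 0.19, adjusted p = 0.0116; 0.00464 with the block). Without dissection 3 it was 1.96 (adjusted p = 0.00321). The call was lost when RPKM was rescaled to the same sum in each library (adjusted p = 0.0557), without mandible library 1 or 2 or tibia library 1 or 2 (adjusted p from 0.0663 to 0.0816), and without dissection 1 (0.355) or 2 (0.357), while the fold change stayed between 1.69 and 1.96 whichever library or dissection was left out.

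Adamts20, mutated in the belted mouse and a versican-cleaving protease of the developing skin and palate, showed a like pattern below the filter. Its RPKM was 1.09, 0.727 and 0.533 from the mandible and 0.0204, 0.0110 and 0.00982 from the tibia, and 1 of its 3 transcripts held 93.6% of the level. The groups did not overlap. When all genes were tested without a filter, its fold change of 1.30 had an adjusted p of 0.0534, and 0.0868 with the block, an alternative added after the data were seen. In the mandible, Timp3, Adamtsl2 and Adamts19 ranked the libraries in the same order as the sum of the odontoblast list (71.0, 90.0 and 17.9 in libraries 1, 2 and 3). Dspp was the largest part of that sum, and Adamts20 ranked the libraries in another order. Other members ranked the mandible libraries in the odontoblast order too, among them Mmp2 and Adamts1, which had no call in either fit. The order is thus not particular to genes with a higher mandible level. The sums of epithelial and of tendon and periosteum markers followed the same order as the odontoblast sum, and the ameloblast sum, highest in library 3, did not. The odontoblast, ameloblast, epithelial (9.15 to 17.6 against 1.09 to 3.14; 4 of 6 genes higher in every mandible library, none at 0 throughout either group), cartilage (99.8 to 258 against 20.1 to 95.1) and Schwann cell sums (50.4 to 82.2 against 8.30 to 23.4; 2 of 5 genes) all moved with the higher mandible levels of Timp3, Adamtsl2, Adamts19 and Adamts20. The part of these cell types in those differences was not tested.

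Adamts1, Adamts10 and Adamts4 had the highest mean levels of the ADAMTS. Adamts1, which cuts aggrecan and versican, was at 45.7, 50.1 and 11.4 RPKM from the mandible and 34.5, 40.7 and 15.3 from the tibia. Dissection 3 was low at both sites and the groups overlapped (0.10, SE 0.64, adjusted p = 0.988), and the difference turned to -0.02 after quantile normalization. Adamts4, aggrecanase-1, was at 34.0, 37.3 and 7.40 against 21.2, 21.9 and 7.39. In dissections 1 and 2 the mandible was higher, and in dissection 3 the sites were nearly equal. The fold change of 0.47 (SE 0.70, adjusted p = 0.954; 0.141 with the block) became 0.71 without dissection 3 (adjusted p = 0.0198). Adamts5, aggrecanase-2, was lower in level and overlapped between sites, at 5.35 ± 1.38 from the mandible and 6.43 ± 0.915 from the tibia (-0.26, adjusted p = 0.890).

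Adamts10, a protease of fibrillin microfibrils, was at 45.1, 48.2 and 20.9 RPKM from the mandible and 33.9, 28.1 and 18.3 from the tibia. The mandible was higher in each dissection and the groups overlapped through dissection 3 (0.45, SE 0.39, adjusted p = 0.883; 0.103 with the block). Its coding transcript held 31.3% of this sum, and 2 transcripts listed as non-coding held the rest. The protease Adamts6, related to Adamts10, did not overlap between sites, at 1.32 ± 0.185 from the mandible and 0.791 ± 0.224 from the tibia (0.50, adjusted p = 0.507; 0.167 with the block), and neither did Adamts18, at 0.763 ± 0.297 and 0.379 ± 0.107 (0.50, adjusted p = 0.626; 0.130 with the block). Adamts17, also tied to microfibrils, was nearly level, at 2.09 ± 0.246 and 1.87 ± 0.122 (0.12).

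The procollagen N-proteinases, which remove the amino-terminal propeptides of fibrillar procollagens, went different ways, none of them past the threshold with site only. Adamts2 was at 13.2 ± 2.61 from the mandible and 14.1 ± 2.09 from the tibia (-0.10, adjusted p = 0.968). Adamts3 was higher in the mandible in each dissection, at 4.99, 4.88 and 2.14 against 2.32, 2.93 and 1.54 (0.66, adjusted p = 0.694; 0.0654 with the block; 0.0419 without dissection 3). Adamts14 had the lower mandible library in each dissection, at 4.14, 3.28 and 2.17 against 6.27, 3.99 and 3.35 (-0.44, adjusted p = 0.817; 0.110 with the block).

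The remaining ADAMTS overlapped between sites. Adamts9 (-0.31) and Adamts15 (-0.27), which cut versican, were lower in the mandible in each dissection, with mean levels of 2.54 and 0.582 RPKM against 3.28 and 0.788 in the tibia. Adamts7 (0.16) and Adamts12 (0.07), which bind cartilage oligomeric matrix protein, and Adamts13 (0.17), which cuts von Willebrand factor, had means from 1.11 to 3.59 RPKM. Their adjusted p-values, in the fit with site only, ran from 0.811 to 0.983. Adamts8 and Adamts16 were below the filter, at or under 0.179 RPKM in both groups.

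**Figure D4:**
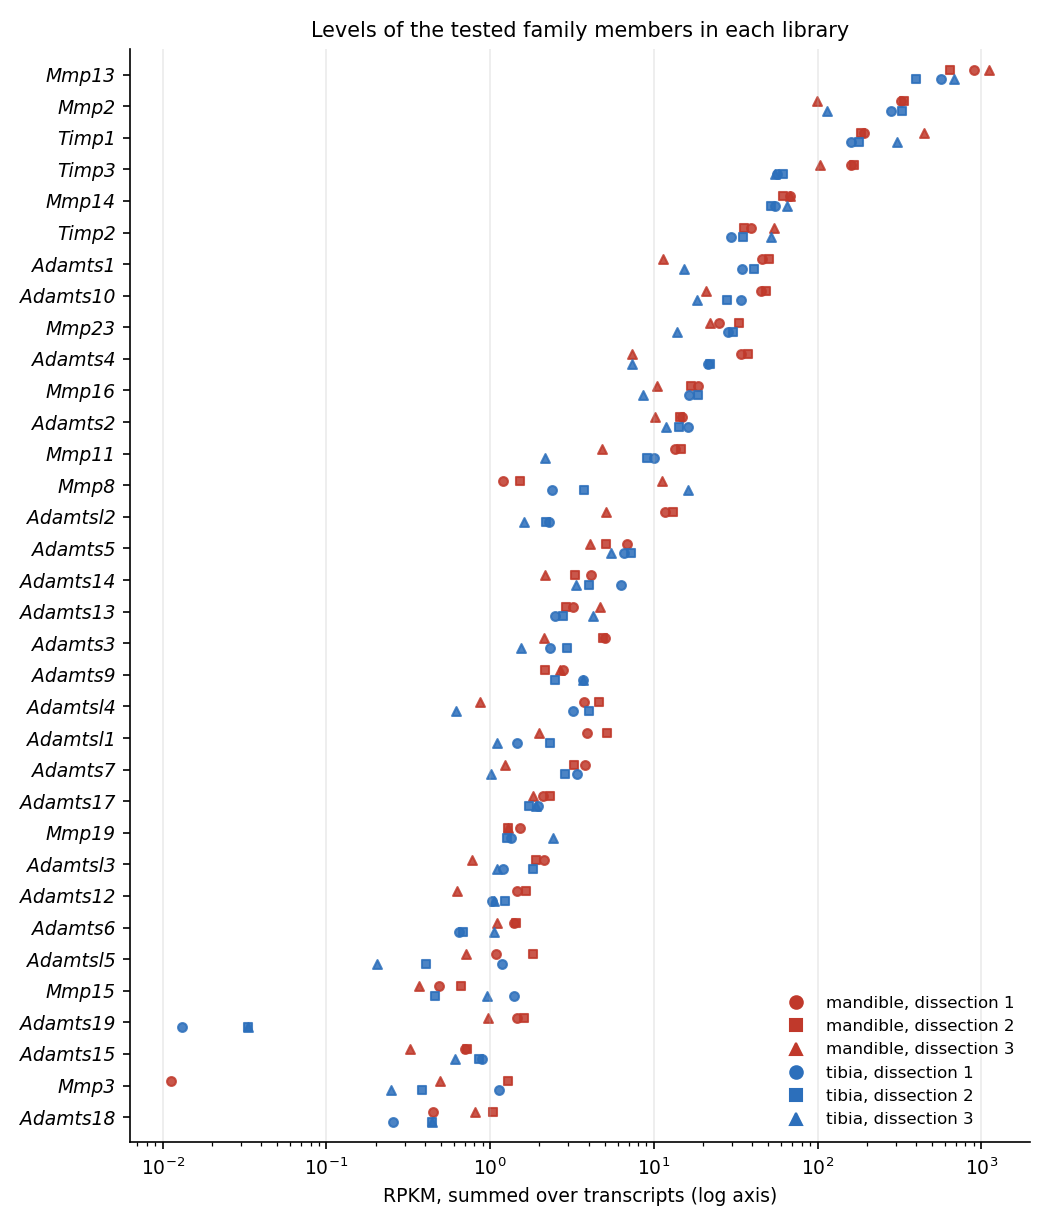
RPKM (log axis) of the 34 tested members in each of the 6 libraries, ordered by mean, with colour for site and symbol for dissection. Mmp13 tops the order and Mmp2 and Timp1 follow. The triangles of dissection 3 lie to the left for Mmp2, Adamts1, Adamts4, Adamtsl4 and Mmp11 and to the right for Timp1, Timp2 and Mmp8 at both sites.

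Dissection 3 stood apart in many members, in both directions. In 7 of the 34 tested members (Mmp2, Mmp11, Adamts1, Adamts4, Adamts7, Adamtsl4 and Adamtsl5) its RPKM was under 0.5 times the mean of the other dissections at both sites, 20.6% against 5.91% of all genes tested. In 1 member, Mmp8, it was over 2 times that mean at both sites, 2.94% against 8.34% of all genes. Adamtsl4 was at 0.208 and 0.172 times the mean of the other dissections in the mandible and the tibia, Adamts4 at 0.207 and 0.342, and Mmp2 at 0.300 and 0.377. Timp1 stood on the other side, at 2.38 in the mandible and with its highest tibia library in dissection 3, as did Mmp13 at 1.44 and 1.42 and Timp2 at 1.45 and 1.61. The sum of all RPKM was highest in dissection 3 as well. It was 392579, 410846 and 586126 from the mandible and 374077, 390572 and 547950 from the tibia. Ratios such as that of Mmp13 therefore do not show a rise relative to the library total. The ratio of summed MMP to TIMP RPKM was lowest in dissection 3 at both sites, at 2.20 and 2.21. The labels give no difference in handling between the dissections. The neutrophil sums and the erythroid sums (20650 in mandible library 3 and 42987 in tibia library 3, the highest of each site) moved with dissection 3, and their part in these values was not tested.

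**Figure D5:**
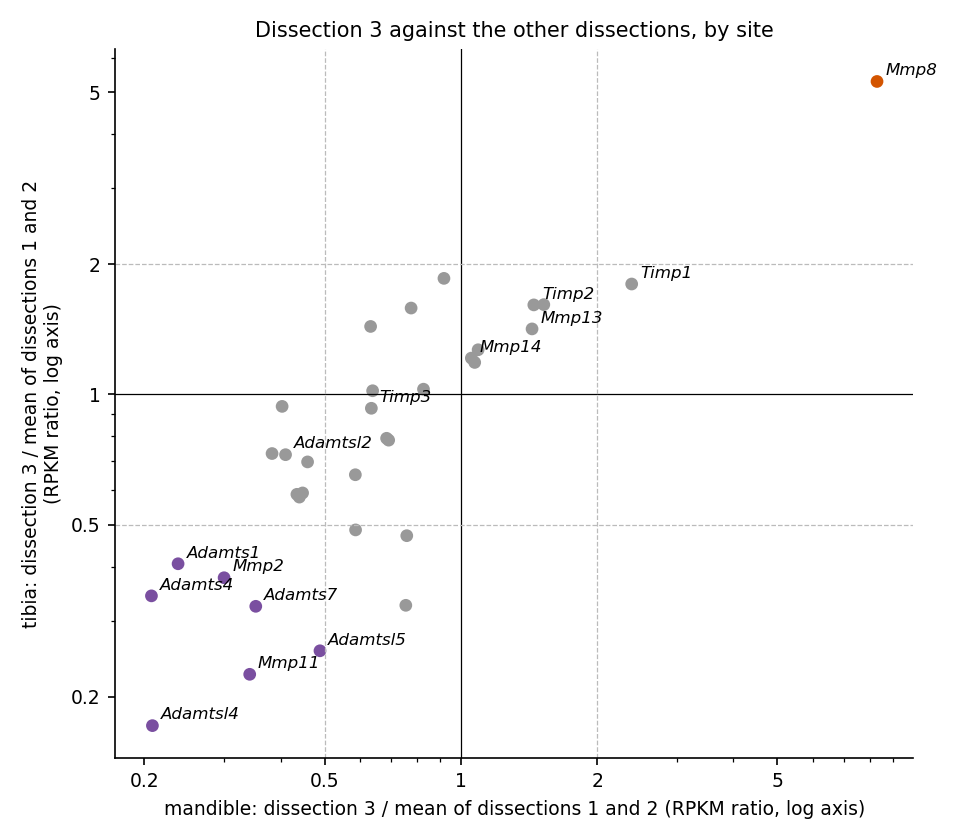
RPKM of dissection 3 divided by the mean of dissections 1 and 2, in the mandible (x) and the tibia (y), both on log axes, for the 34 tested members; dashed lines mark ratios of 0.5 and 2. The 7 purple members lie under 0.5 at both sites and Mmp8 (orange) lies over 2 at both.

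Genes that steer matrix proteolysis outside these families were counted as well. Of a list of 51 convertases, plasminogen system genes, ADAMs, cathepsins and inhibitors, 41 were tested and none passed limma with site only, with 4 at an unadjusted p under 0.05. With the block 4 passed, 9.76% against 6.49% of all genes, which are named here after their values were seen. Spock2, a testican proteoglycan, passed as higher in the mandible (2.57 ± 1.25 against 1.24 ± 0.599 RPKM, adjusted p = 0.0456 with the block), a call lost with the block and quantile (0.0669) or same-sum scaling (0.0636). The cathepsins Ctsh (59.3 ± 16.8 against 107 ± 9.59, adjusted p = 0.0185) and Ctss (32.8 ± 31.8 against 50.1 ± 43.3, adjusted p = 0.0208) and the serine protease Fap (51.2 ± 6.28 against 74.7 ± 8.67, adjusted p = 0.0263) fell with the block. Ctss is also made by macrophages, whose 8-marker sum was 168 to 397 in the mandible and 212 to 558 in the tibia, lower in the mandible in each dissection, with no marker at 0 throughout a group, and its part was not tested.

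The most abundant genes of that list had no site call in either fit. They were the collagen chaperone Serpinh1 (2208 ± 1081 against 1822 ± 1012 RPKM), the procollagen C-proteinase enhancer Pcolce (1256 ± 304 against 1316 ± 318), the cysteine protease inhibitor Cst3 (529 ± 191 against 513 ± 92.6), the protease inhibitor Serpine2 (461 ± 86.5 against 426 ± 303) and cathepsin K, Ctsk (328 ± 44.2 against 286 ± 33.4), the collagenase of osteoclasts. Osteoclast marker sums were 567 to 777 in the mandible and 534 to 600 in the tibia. The list's median log2 fold change was -0.07, against 0.12 over all genes.

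Among 33 matrix proteins that these enzymes act on or bind, 32 were tested and 1 passed with site only, 3.12% against 0.972% of all genes. It was Col2a1, the cartilage collagen, at 86.2 ± 32.5 from the mandible and 12.6 ± 5.14 from the tibia (2.73, SE 0.37, adjusted p = 0.0257; 0.000375 with the block). Cartilage marker sums, of which Col2a1 is part, were 99.8 to 258 in the mandible and 20.1 to 95.1 in the tibia, with 4 of 10 genes higher and 1, Col10a1, lower in every mandible library, none at 0 throughout either group and Acan, aggrecan, level at 7.70 ± 5.13 and 7.36 ± 4.26. With the block 8 passed, 25% against 6.49% of all genes, named after their values were seen. Col2a1, Col3a1, Col9a1, Vcan (versican, 22.7 ± 7.30 against 12.6 ± 2.96) and Ibsp (bone sialoprotein, 2442 ± 137 against 1551 ± 167) were higher, and Col1a1 (13305 ± 6703 against 19546 ± 10046, adjusted p = 0.0310), Col1a2 (adjusted p = 0.0376) and Bcan were lower. The calls of Col1a1 (adjusted p = 0.0759) and Col1a2 (0.164) were lost with the block and quantile normalization, under which Col4a1, Col4a2 and Eln passed as lower. With the block and no filter, none of the 8 passed. The median of the list was 0.02. Vcan, which Adamts1, Adamts4 and Adamts20 can cut, and Fbn2 were at higher mean levels in the mandible, while Bcan was lower and Acan level. Among the fibrillar collagens, which Mmp13 cuts, Col1a1 and Col1a2 were at lower mean levels and Col2a1 and Col3a1 at higher ones. A link between these levels and those of the proteases was not tested.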

How the data were processed

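Gene expression was measured by RNA sequencing in 3 mandible and 3 tibia libraries, grouped by title. The authors deposited RPKM per RefSeq transcript, made on mm10 with Partek 6.15.1207 per the file headers; CASAVA 1.8.2, TopHat2 2.1.0 and Partek 6.6 are named in the submitters' processing notes. No source used here gives the strand setting. RPKM is not corrected for a few transcripts taking many reads. No columns of other series were used.

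RPKM of the 30198 transcripts was summed per symbol. Genes with a mean of at least 0.5 over the 6 libraries (12752) entered limma 3.58.1 (R 4.3.3; lmFit, eBayes with trend) as log2(RPKM + 0.5), two-sided, Benjamini-Hochberg over all genes, threshold 0.05. The added 0.5 understates the change of low genes. The script was tested on simulated data. Figures used matplotlib 3.10.9 in Python 3.11.15.

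The model held the site only. The dissection numbers pair the libraries, from the labels' 3 independent dissections, and the dissection as a block was the second fit. Same-numbered libraries deviated together from their site means, with correlations of 0.59, 0.66 and 0.80 across genes. Crossed pairs of dissections 1 and 2 came close, at 0.55 (mandible 1, tibia 2) and 0.52 (mandible 2, tibia 1). The correlations thus set dissection 3 apart but hardly separate dissections 1 and 2, whose pairing rests on the labels. Depth was read from the steps of low RPKM of 13731 single-transcript genes, of which 50.6% to 64.6% of low values lay within 0.05 of a whole read; the rest did not, so no count model was fitted. Such read numbers cover counting error only, and amplification of 2 to 8 ng adds error that they do not show.

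Members and lists were chosen with earlier results of these data known. All libraries are given for members passing in either fit, for the 4 TIMPs and for the 3 members with the highest mean in each of 4 role groups. Other members are named with means or ranges. Adamts20, Adamts3, Adamts14, Mmp3 and Mmp21 were given in full after their values were seen. Alternatives were pseudocounts of 0.1 and 1, no filter or a mean of at least 1, quantile, same-sum and median-of-ratios scaling, the highest transcript per gene, no trend, the block, and leaving out libraries or dissections.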

Additional observations from a re-analysis of the deposited data

How the results depend on the processing

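Site only, all 12752 genes gave 124 calls, 111 higher and 13 lower; rescaling to the same sum gave 62, and the block 828 (566 higher, 262 lower). Block with quantile normalization gave 784 (360 higher, 424 lower) and block with same-sum rescaling 758 (429 higher, 329 lower), so the direction of calls depends on scaling; block without a filter gave 0. Leaving out 1 library gave 37 to 151, and leaving out dissection 1, 2 or 3 gave 6, 0 and 714. The 2 combinations of the block with same-sum rescaling and with no filter were chosen after seeing the data.

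Members called (1) became 0 with a mean of at least 1 (Adamts19 drops out) or same-sum rescaling, 7 with the block, 6 with block and quantile normalization, 6 with block and same-sum rescaling, and 0 with block and no filter. Without 1 library they were 0 to 3, highest without mandible library 3, and without dissections 1, 2 and 3 they were 0, 0 and 5. Pathway calls (0) became 4 with the block (1 higher, 3 lower), 7 and 5 (all lower) with block and quantile or same-sum scaling, and 3 without dissection 3. Substrate calls (1) became 0 without a filter, with quantile normalization, with same-sum rescaling and with block and no filter, 8 with the block, and 9 with the block under either scaling (5 higher, 4 lower, in part other genes). Without 1 library they were 0 to 1 and without dissections 1, 2 and 3 they were 0, 0 and 5.

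Over 18 named members and 394 settings, 333 kept direction and side of the threshold, 8 lost and 21 gained a call, and 32 reversed, all in members with no call in either fit of all 6 libraries. On the log2 scale Mmp2 reversed to -0.16 (quantile, with or without the block), -0.065 (same sum, with or without the block) and -0.12 (median of ratios); Adamts1 to -0.021 (quantile, with or without the block) and -0.038 (median of ratios); Mmp16 to -0.031 and -0.027 likewise. Without dissection 1 or 2, Adamts1 was -0.055 and -0.0040 and Mmp2 -0.076 and -0.0063; without dissection 3, Mmp23 was -0.036. Leaving out 1 library moved Adamts1 from -0.33 to 0.77, Adamts4 from -0.021 to 1.20, Adamtsl4 from -0.41 to 0.80, Mmp16 from -0.23 to 0.35, Mmp2 from -0.45 to 0.59, Mmp23 from -0.16 to 0.39, Timp1 from -0.13 to 0.57 and Timp2 from -0.020 to 0.38. The cause was not tested. Of the 7 members and 12 list genes that passed with the replicate block, Adamts19 and Col2a1 also passed with site only. The block changed the calls of the others, and no other call among the members and list genes. Depth limits the members near 3 reads, such as Adamts19 in tibia library 1.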
